A study of Homo sapiens with 12 samples.

Results

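The CYP3A genes form a cluster on chromosome 7 and encode cytochrome P450 monooxygenases. The loci described here were every row of the deposited expression table whose gene name, split at commas, was CYP3A4, CYP3A5 or CYP3A7, with each row kept separate. They numbered 12 of the 38272 loci in the table, with 6 named CYP3A5, 5 named CYP3A7 and 1 named CYP3A4. The set was chosen because all CYP3A5 loci were known to be higher with TNF in these libraries, so its levels with and without TNF are a description and carry no test.

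RNA was sequenced from K562, an established line derived from chronic myeloid leukaemia, in 12 libraries, 3 labelled biological replicates for each of 4 groups. TNFSG cells had the transfection labelled Si623/Gap01, read here as an siRNA with a GapmeR that target a lncRNA (long non-coding RNA), followed by 6 hours of TNF (tumour necrosis factor alpha, 20 ng/mL). TNF cells had the mock transfection labelled SiCt+GapCt and the same TNF treatment, SG cells had Si623/Gap01 without TNF, and control cells had SiCt+GapCt without TNF. GapmeRs are antisense oligonucleotides that lead RNase H to cut a chosen RNA. All 4 groups thus carried an siRNA and a GapmeR. Nothing in the labels states separate cultures, so the p-values below measure the spread between these libraries, and a single line was used. Values are FPKM, in which the fragments of a locus are divided by its length and by the size of the library, so levels are per length. In bulk RNA, fewer cells expressing a gene and less RNA per cell cannot be told apart.

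CYP3A enzymes sit in the endoplasmic reticulum, take electrons from cytochrome P450 reductase and oxidise steroids, bile acids and a wide range of drugs. CYP3A4 is the main form of adult liver and small intestine, CYP3A7 is the main form of fetal liver, and CYP3A5 is also found in tissues outside the liver. The pregnane X receptor and the constitutive androstane receptor raise CYP3A4 transcription in hepatocytes through everted repeats of a nuclear receptor motif, and inflammatory cytokines are known to lower CYP3A4 in hepatocytes.

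In GENCODE release 29 (GRCh38) the genes follow one another on chromosome 7, with CYP3A5 at chr7:99648194-99680026, CYP3A7 at chr7:99684957-99735196 and CYP3A4 at chr7:99756960-99784265, all on the minus strand. CYP3A43 follows at chr7:99828013-99866102 on the plus strand. CYP3A7 overlaps the pseudogene CYP3A51P and the readthrough gene CYP3A7-CYP3A51P. The table gives no coordinates for its loci, so the exons or introns behind each of the 12 rows are not known here.

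The promoters are shown because CYP3A5 and CYP3A7 were both higher with TNF while their control levels differed. Each line gives the 250 bases before the RefSeq start (GRCh38.p14, minus strand, 5′ to 3′), with the everted repeat and the CCAAT boxes of either strand in capitals. The windows are chr7:99679997-99680246 for CYP3A5, chr7:99735197-99735446 for CYP3A7 and chr7:99784185-99784434 for CYP3A4.
CYP3A5: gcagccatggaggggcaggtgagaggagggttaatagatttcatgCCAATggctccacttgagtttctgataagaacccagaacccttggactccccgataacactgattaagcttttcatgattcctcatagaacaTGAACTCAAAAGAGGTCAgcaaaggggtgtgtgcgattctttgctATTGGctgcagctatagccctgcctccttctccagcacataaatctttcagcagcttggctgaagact
CYP3A7: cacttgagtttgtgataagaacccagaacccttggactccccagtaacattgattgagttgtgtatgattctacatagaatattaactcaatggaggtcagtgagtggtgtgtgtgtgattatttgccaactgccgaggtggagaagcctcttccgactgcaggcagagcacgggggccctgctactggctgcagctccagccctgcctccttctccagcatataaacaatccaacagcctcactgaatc
CYP3A4: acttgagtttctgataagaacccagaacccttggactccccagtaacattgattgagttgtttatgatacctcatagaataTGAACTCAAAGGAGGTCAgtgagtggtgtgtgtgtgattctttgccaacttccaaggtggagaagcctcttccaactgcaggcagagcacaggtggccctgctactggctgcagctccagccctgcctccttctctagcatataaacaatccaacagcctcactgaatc

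Motifs were searched on both strands of windows of 300 bases, 250 before to 50 after the start. The everted repeat, with TGAACT and AGGTCA spaced by 6 bases, was found in the CYP3A5 and CYP3A4 windows and in 3 of 35116 RefSeq promoters (0.00854%). The aligned 18 bases of CYP3A7 differed from those of CYP3A4 by G2T and A10T, and those of CYP3A5 by G11A, with positions counted from 1 at the 5′ end of the CYP3A4 repeat. CYP3A5 had 2 matches of CCAAT, which 34.6% of promoters hold, while CYP3A7 and CYP3A4 had 0. An NF-kB motif match began 13 bases after the first transcribed base in CYP3A5, outside the printed stretch, and none was found in the other two windows. Of all promoters, 11.3% hold that motif. The AP-1 motif TGANTCA was found in CYP3A7 and CYP3A4 and in 7.71% of promoters, and the C/EBP motif TTGCNNAA was in neither of them nor in CYP3A5 (10.5% of promoters). GATAA (22.7% of promoters) and ATAAA (34.9%) were found in all 3 windows. No 2 matches overlapped, and whether any window is the start used in K562 is not known from the table. The CYP3A7 and CYP3A4 windows were 94.3% identical over their aligned bases, CYP3A5 and CYP3A4 85.9%, and CYP3A5 and CYP3A7 84.3%.

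The reads were single and 50 bases long, and the transcripts share sequence. The coding sequences of CYP3A5 and CYP3A7 are 88.8% identical, those of CYP3A5 and CYP3A4 89.5% and those of CYP3A7 and CYP3A4 94.6%. Of the 1671 stretches of 50 bases in the CYP3A5 transcript, 75 (4.49%) also occur in another CYP3A transcript, and 4 of them occur in CYP3A7. Of the 1655 stretches of CYP3A7, 165 (9.97%) occur in CYP3A4, and 55.3% have a match in another CYP3A transcript within 2 mismatches. The longest coding stretch shared by CYP3A5 and CYP3A7, shown because a read inside it fits both genes, spans 52 bases and an intron within chr7:99648396-99650119.
CYP3A5 and CYP3A7: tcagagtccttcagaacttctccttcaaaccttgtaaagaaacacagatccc

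The 10 NF-kB target genes taken as a check of the treatment rose with TNF in both transfections. In TNFSG against SG all 10 passed limma's adjusted threshold of 0.05 as higher, beside 1.37% of all loci tested. In TNF against control all 10 passed as higher, beside 1.18% of all loci tested. The list was chosen with earlier results of these data known, so its count carries no test. The lncRNA of the series title is read here as a neighbour of PTTG1 and MIR146A, and the MIR146A locus averaged 5.44 ± 2.03 FPKM in TNFSG, 25 ± 3.48 in TNF, 0.0399 ± 0.0347 in SG and 0.363 ± 0.205 in control (SD, n = 3 each). All 12 markers of K562 were above 0 in every library. Of 18 hepatocyte markers, 5 had a locus analysed here, with summed levels of 25 to 54.3 FPKM in TNFSG, 14 to 27.3 in TNF, 26.7 to 44.5 in SG and 18.3 to 21.8 in control. ALB, the albumin gene, averaged 2.09 FPKM over the 12 libraries, TAT 12.9, TF 8.23, ASGR1 2.85 and CPS1 1.55. In the hepatocyte sums TNFSG overlapped SG, as TNF overlapped control. Of 13 enterocyte markers, 3 had a locus, with sums of 57.4 to 882.7 FPKM in TNFSG, 324.9 to 1595.4 in TNF, 26.8 to 332.1 in SG and 317.2 to 2601.3 in control, so all 4 ranges overlapped. Of 6 fibroblast markers, 3 had a locus, with sums of 65.2 to 443.8 FPKM in TNFSG and 55.1 to 1177.8 in TNF, against 21.3 to 45.3 in SG and 23.9 to 56.3 in control. TNFSG thus lay above SG in all libraries, as CYP3A5 did, and TNF overlapped control. Of these markers COL1A2 reached 1097.8 FPKM in 1 library and averaged 138.2 over the 12, while COL1A1 averaged 3.41 and DCN 41.8. Sums of 3 lymphoid and 5 epithelial markers overlapped in TNFSG against SG and in TNF against control. The lymphoid sums were 33.3 to 48.9 FPKM in TNFSG, 16 to 50.3 in TNF, 30.1 to 39.6 in SG and 16.7 to 41.2 in control. The epithelial sums were high in every group, at 369.4 to 392.0 FPKM in TNFSG, 388.1 to 403.3 in TNF, 365.1 to 399.4 in SG and 371.7 to 397.5 in control. The part of such RNA in the CYP3A values was not tested. The depth of a library is not in the file. Relative depths estimated from low values reached 1.32 in TNFSG replicate 1 and were lowest, at 0.863, in control replicate 3.

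CYP3A5 was the most abundant of the 3 genes in every group. Its main locus, XLOC_032059, had 116.7, 139.2 and 148.8 FPKM in TNFSG, against 15.7, 24.4 and 23.2 FPKM in SG. It had 96.5, 134.1 and 146.1 FPKM in TNF, against 13.7, 17.3 and 22.3 FPKM in control. Every library with TNF was above every library without it. The means were 134.9 ± 16.5 FPKM in TNFSG, 125.5 ± 25.9 in TNF, 21.1 ± 4.72 in SG and 17.8 ± 4.29 in control (SD, n = 3 each). The ratio of means was 6.4 in TNFSG against SG and 7.07 in TNF against control. Of the order TNFSG, TNF, SG and control, only the step between TNF and SG separated groups that did not overlap.

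The other 5 CYP3A5 loci had the same split. XLOC_033034 had 78.2, 124.8 and 111.9 FPKM in TNFSG and 81.7, 92.5 and 143.2 in TNF, against 11, 22.5 and 24.7 in SG and 5.89, 14.7 and 16.2 in control. XLOC_033035 had 93.9, 88.3 and 126.5 FPKM in TNFSG and 54.3, 101.0 and 109.2 in TNF, against 9.6, 23.2 and 17.7 in SG and 11.5, 15.8 and 17.4 in control. At these loci the lowest library with TNF was more than 3 times the highest library without it in the matching transfection, with quotients of 3.17 and 5.04 for XLOC_033034 and of 3.81 and 3.12 for XLOC_033035. XLOC_033036 had 53, 49.2 and 50.8 FPKM in TNFSG, against 5.57, 8.23 and 5.38 in SG, and 32.9, 28.9 and 47.6 in TNF, against 5.05, 5.08 and 5.66 in control. XLOC_033037 had 59.4, 74.9 and 89.1 FPKM in TNFSG, against 18.9, 21.2 and 15.8 in SG, and 61.7, 43.8 and 89.8 in TNF, against 9.09, 3.24 and 12.3 in control. XLOC_033038, the lowest of the 6, averaged 12.3 ± 2.82 FPKM in TNFSG, 10.9 ± 2.58 in TNF, 1.47 ± 0.516 in SG and 1.38 ± 0.484 in control (SD, n = 3 each). Over the 6 loci the ratio of means ran from 3.99 to 8.37 in TNFSG against SG and from 5.9 to 8.63 in TNF against control. The ratio of 3.99 belonged to XLOC_033037, whose SG mean of 18.7 FPKM was the highest relative to control.

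**Figure D1:**
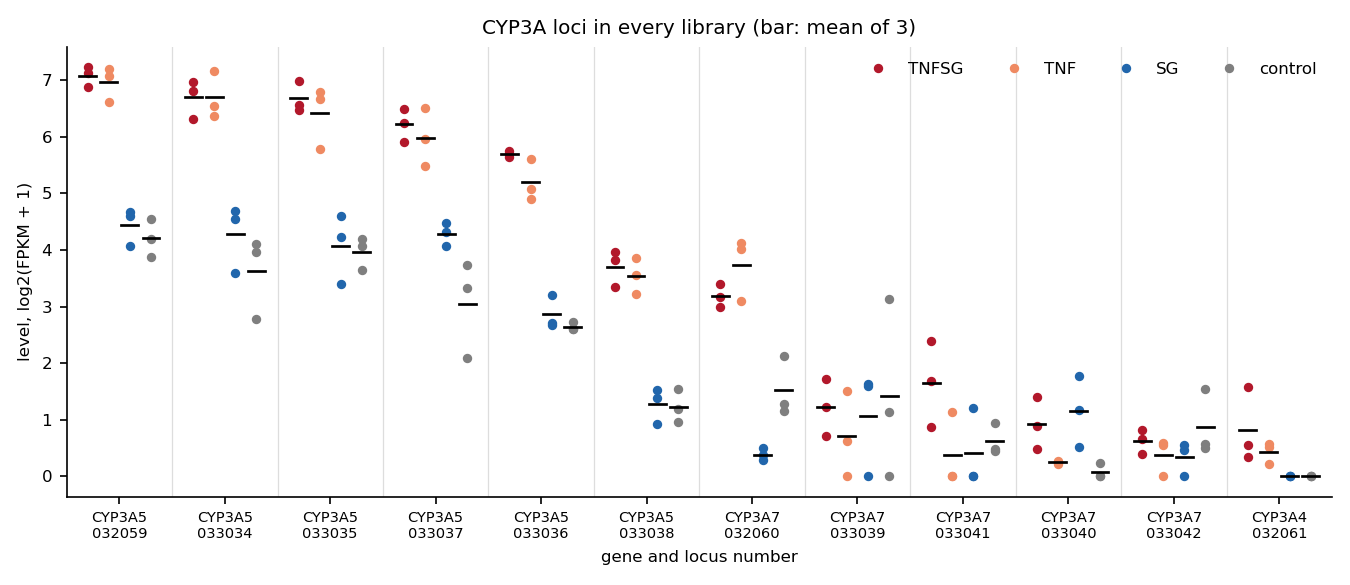
Level of each CYP3A locus in every library, as log2(FPKM + 1), with 1 point per library, colours for the groups TNFSG, TNF, SG and control, and a bar at the mean of the 3 log values. At all 6 CYP3A5 loci and at CYP3A7 locus XLOC_032060 the libraries with TNF lie above those without it, while the other 4 CYP3A7 loci stay near the bottom and mix.

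Locus numbers differ in depth, so the reads behind the values were examined. FPKM of 10 of the 12 loci stepped in whole multiples of 1 read within a tolerance of 0.03, and 57.5% of 37046 loci examined did so. The exceptions were the main loci XLOC_032059 and XLOC_032060. Summed over the 5 smaller CYP3A5 loci, the libraries held 796, 659 and 750 reads in TNFSG, 528, 590 and 673 in TNF, 82, 129 and 114 in SG and 78, 75 and 91 in control. The 4 smaller CYP3A7 loci together held 28, 20 and 9 reads in TNFSG, 6, 7 and 4 in TNF, 5, 15 and 17 in SG and 16, 7 and 16 in control. CYP3A5 sums with TNF were thus all above those without it, while those of the smaller CYP3A7 loci never passed 28 reads.

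**Figure D2:**
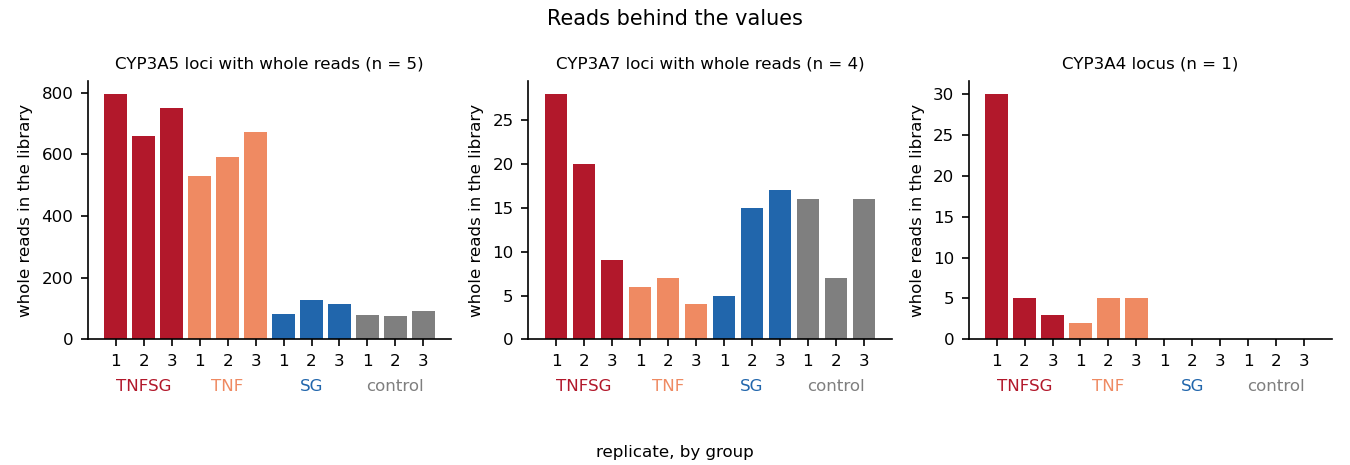
Whole reads per library recovered from the deposited values, not scaled to depth, for 5 CYP3A5 loci, 4 smaller CYP3A7 loci and the CYP3A4 locus, with replicates 1 to 3 by group. CYP3A5 bars reach 528 to 796 reads with TNF and 75 to 129 without it, and CYP3A4 has reads only in the libraries with TNF.

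CYP3A7, the fetal form, was present at a lower level. Its main locus, XLOC_032060, had 9.57, 6.96 and 8.01 FPKM in TNFSG, against 0.409, 0.296 and 0.215 FPKM in SG. It had 7.52, 16.4 and 15.1 FPKM in TNF, against 1.23, 3.36 and 1.43 FPKM in control. The groups with TNF did not overlap those without it, and SG did not overlap control. The means were 8.18 ± 1.31 FPKM in TNFSG, 13 ± 4.78 in TNF, 0.306 ± 0.0973 in SG and 2.01 ± 1.17 in control (SD, n = 3 each), with ratios of means of 26.7 in TNFSG against SG and 6.46 in TNF against control. The ratio of 26.7 and the split of SG from control rest on SG values under 1 FPKM, whose reads could not be recovered. TNF and TNFSG overlapped, so in the order TNF, TNFSG, control and SG only the first neighbours were not separated.

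The CYP3A7 level was then set against the CYP3A5 level of the same library, both in FPKM of the main loci. It was 8.2, 5 and 5.38% in TNFSG, 7.79, 12.2 and 10.3% in TNF, 2.61, 1.21 and 0.926% in SG and 9.01, 19.4 and 6.45% in control. The 3 SG libraries lay below all others, and the other 3 groups overlapped. The CYP3A7 values behind the SG shares were all under 1 FPKM. The means were 6.2 ± 1.75% in TNFSG, 10.1 ± 2.21% in TNF, 1.58 ± 0.898% in SG and 11.6 ± 6.85% in control (SD, n = 3 each). Of the stretches of 50 bases in the CYP3A7 transcript, 3 are identical in CYP3A5 and 14.9% match it within 2 mismatches. The part of shared reads in these levels was not tested.

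**Figure D3:**
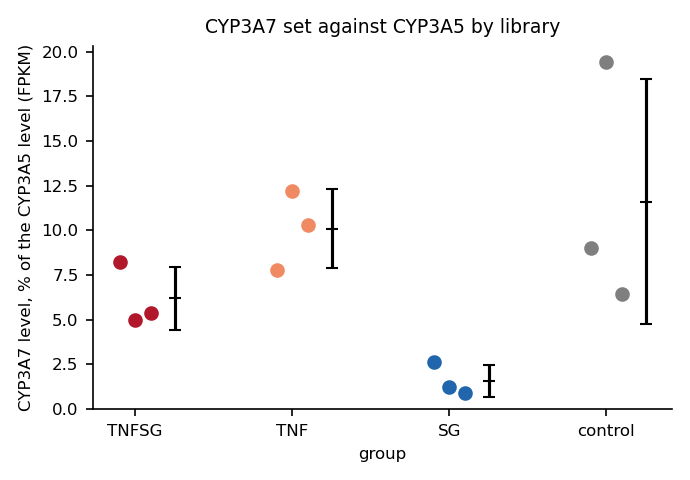
CYP3A7 level as a percentage of the CYP3A5 level in the same library (main loci, FPKM), with 1 point per library and a mark with its bar for the mean ± SD of 3. SG libraries lie between 0.926 and 2.61%, below the other 3 groups.

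The remaining CYP3A7 loci had few reads and no shared pattern. XLOC_033039 had 5, 2 and 1 reads in TNFSG, 1, 3 and 0 in TNF, 3, 3 and 0 in SG and 0, 2 and 11 in control. XLOC_033040 had 6, 8 and 2 reads in TNFSG, 1, 1 and 1 in TNF, 2, 6 and 14 in SG and 0, 1 and 0 in control. XLOC_033041 had 14, 5 and 2 reads in TNFSG, against 0, 3 and 0 both in TNF and in SG, and 1, 1 and 2 in control. XLOC_033042 had 3 to 5 reads in TNFSG, 0 to 4 in TNF, 0 to 3 in SG and 3 to 15 in control, and it did not reach 1 FPKM in 3 libraries. At XLOC_033040 both groups with Si623/Gap01 lay above the mock groups at the same TNF state, and at the other 3 loci the groups overlapped in each of those comparisons. Whether these rows are fragments of the CYP3A7 transcript is not known from the table.

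CYP3A4, the main adult hepatic form, was near the limit of detection. Its locus, XLOC_032061, had 30, 5 and 3 reads in TNFSG, against 0 reads in each SG library. It had 2, 5 and 5 reads in TNF, against 0 reads in each control library. In FPKM these were 1.97, 0.475 and 0.271 in TNFSG and 0.155, 0.433 and 0.477 in TNF. A floor of 3 reads was set over the group without TNF, scaled for depth, and the reads with TNF were taken as counted. On that basis CYP3A4 was at least 11.4-fold higher in TNFSG than in SG and at least 3.94-fold higher in TNF than in control. TNFSG replicate 1, the library of greatest depth, held 30 of the 38 TNFSG reads, and without it the first bound was 4.09. Without TNF replicate 2 the second bound was 3.43. The bounds thus allow for counting error only in the group without TNF, not in the reads with TNF. Reads without molecular identifiers are not independent molecules, so other error is not covered either. Of the stretches of 50 bases in the CYP3A4 transcript, 255 of 2104 (12.1%) occur in another CYP3A transcript, and 46.6% match one within 2 mismatches. The part of CYP3A5 or CYP3A7 reads in the CYP3A4 count was not tested.

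Differences were estimated with limma on log2(FPKM + 1) over all 12 libraries for the 32866 loci that reached 1 FPKM in 3 or more libraries, with Benjamini-Hochberg adjustment over all of them. Of the 12 CYP3A loci, 10 entered the fit. This scale understates the change of low loci, and SE is the standard error. The CYP3A5 main locus differed by 2.64 ± 0.23 in TNFSG against SG and by 2.76 ± 0.23 in TNF against control (log2 ± SE). CYP3A7 XLOC_032060 differed by 2.81 ± 0.32 in TNFSG against SG and by 2.22 ± 0.32 in TNF against control. In TNFSG against SG 7 of the 10 loci passed the threshold as higher, as did 1.37% of all loci tested. In TNF against control 7 of 10 passed as higher, as did 1.18% of all loci tested. The loci were chosen on these values, so nothing is read from their counts. The median log2 difference over the 10 loci was 2.43 in TNFSG against SG and 2.38 in TNF against control, beside -0.03 and -0.02 over all loci tested. In TNFSG against SG, the call of XLOC_033037 was lost in 10 of 15 alternatives, which were each of the 6 libraries left out, no trend, no filter, and pseudocounts of 0.1 and 0.5. The call of XLOC_033034 was lost without SG replicate 1, TNFSG replicate 2 or TNFSG replicate 3. In a fit of the compared groups alone, XLOC_033034 and XLOC_033035 did not pass in TNFSG against SG, and in TNF against control neither these nor XLOC_033037 and CYP3A7 XLOC_032060 did, which left 3 loci.

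**Figure D4:**
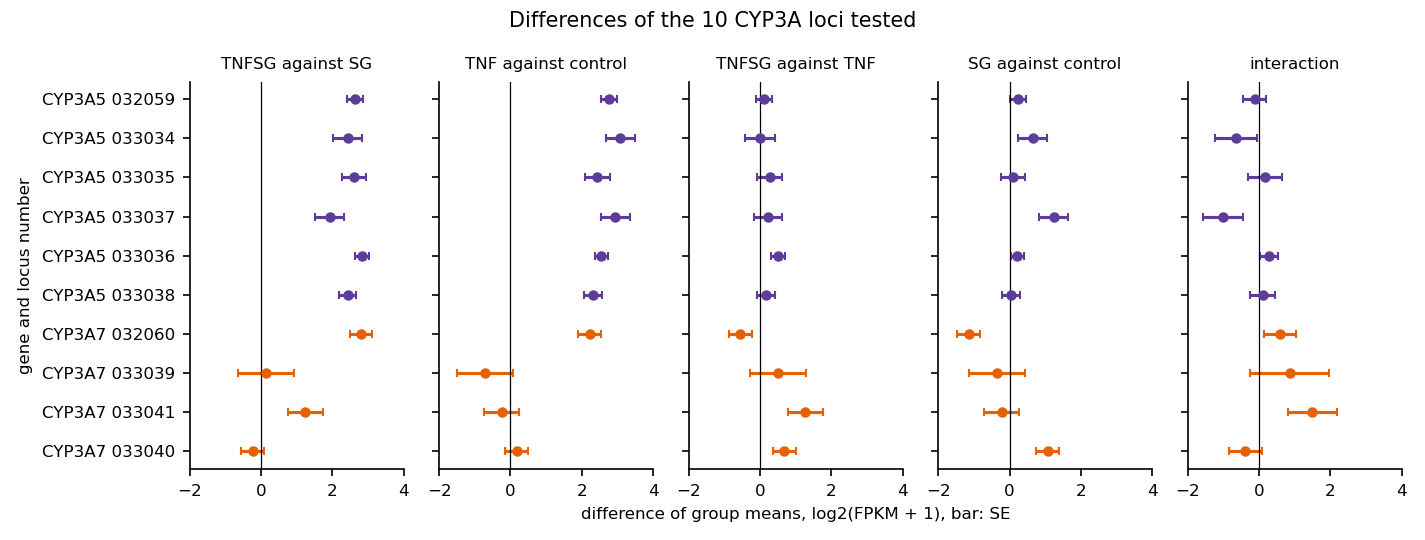
Differences of group means on the log2(FPKM + 1) scale with their SE for the 10 CYP3A loci in the limma fit, in 5 panels by comparison, with CYP3A5 in purple and CYP3A7 in orange. CYP3A5 loci lie between 1.93 and 3.08 in both comparisons of TNF treatment and between -1.01 and 1.24 in the other 3 panels.

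The comparisons of the Si623/Gap01 transfection were not used to choose the loci. In SG against control 0 of the 10 CYP3A loci passed limma's adjusted threshold, beside 0.17% of all loci tested, and 3 of 10 had an unadjusted p under 0.05, as did 9.86% of all loci tested. CYP3A5 XLOC_032059 averaged 21.1 FPKM in SG and 17.8 in control, a difference of 0.24 (log2, 95% interval -0.27 to 0.74) with a limma adjusted p of 0.787. CYP3A7 XLOC_032060 averaged 0.306 FPKM in SG and 2.01 in control, a difference of -1.14 ± 0.32 (log2, interval -1.85 to -0.43). Its limma p was 0.00516 and its adjusted p 0.263, with adjusted p values of 0.0888 to 0.504 under the alternatives, and the difference was -2.27 with a pseudocount of 0.1. All 3 SG libraries were below all 3 control libraries, but the difference did not hold up once adjusted over all loci. The share of all loci with such a split is not given here, so nothing is read from splits between the transfections. CYP3A5 XLOC_033037 averaged 18.7 FPKM in SG and 8.21 in control, also without overlap, and differed by 1.24 ± 0.40 (log2) with a limma adjusted p of 0.336. The remaining 4 CYP3A5 loci differed by 0.05 to 0.65 between SG and control, with limma adjusted p values of 0.655 to 0.972. The third locus with a low unadjusted p, CYP3A7 XLOC_033040, rested on 22 reads in SG and 1 read in control, and its limma adjusted p was 0.303. The median difference over the 10 loci was 0.16, beside 0.08 over all loci tested.

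Under TNF the transfections were also compared. In TNFSG against TNF 0 of the 10 loci passed limma's adjusted threshold, beside 0.128% of all loci tested, and 2 of 10 had an unadjusted p under 0.05, as did 9.11% of all loci tested. CYP3A5 XLOC_032059 averaged 134.9 FPKM in TNFSG and 125.5 in TNF, a difference of 0.12 (log2, interval -0.39 to 0.62) with a limma adjusted p of 0.927. CYP3A5 XLOC_033036 averaged 51 FPKM in TNFSG and 36.5 in TNF, and differed by 0.50 ± 0.19 with a limma adjusted p of 0.451, although the groups did not overlap. CYP3A7 XLOC_032060 averaged 8.18 FPKM in TNFSG and 13 in TNF, a difference of -0.55 (interval -1.26 to 0.16) with a limma adjusted p of 0.659. The intervals leave room for a change in either direction at both main loci. CYP3A7 XLOC_033041 held 21 reads in TNFSG and 3 in TNF, with a limma adjusted p of 0.464, and 14 of the 21 reads came from TNFSG replicate 1.

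The interaction asked whether the TNF difference itself differed between the transfections. Of the 10 CYP3A loci 0 passed limma's adjusted threshold, beside 0.00913% of all loci tested, and 0 of 10 had an unadjusted p under 0.05, beside 3.75% of all loci tested. For CYP3A5 XLOC_032059 the TNF difference with Si623/Gap01 minus that with the mock was -0.12 (log2, interval -0.83 to 0.60). For CYP3A7 XLOC_032060 it was 0.59 (interval -0.41 to 1.59), beside the ratios of 26.7 and 6.46 given above. Over the alternatives it ran from 0.27 without TNF replicate 1 to 1.67 with a pseudocount of 0.1, and 0 of them called it. The farthest CYP3A5 locus from 0 was XLOC_033037 at -1.01 (interval -2.27 to 0.26). The limma adjusted p of each of the 10 loci was 1 when rounded.

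CYP3A43, the remaining gene of the cluster, had 3 loci, and 0 of them passed limma's adjusted threshold in any comparison. XLOC_033046 and XLOC_033047 had 0 reads in every control library, and their totals were 21 and 13 reads in TNFSG, 4 and 2 in TNF, and 2 and 0 in SG. TNFSG replicate 1 held 12 of the 13 reads of XLOC_033047 and 0 of the 21 reads of XLOC_033046. The third locus, XLOC_031597, varied between 20.4 and 119.2 FPKM in TNFSG, 0 and 239.5 in TNF, 0 and 20.7 in SG, and 35.4 and 132.4 in control, so SG lay below control. Its unadjusted p by limma was 0.0396 in TNFSG against SG, 0.0312 in SG against control and 0.0434 for the interaction, and the adjusted p values were 0.397, 0.446 and 1.

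Of the 29 neighbours listed on 7q22.1, 18 loci were tested, and 0 passed limma's adjusted threshold in TNFSG against SG or in TNF against control. Their differences ran from -0.58 to 0.38 (log2) in TNFSG against SG, with 3 unadjusted p under 0.05 (11.4% of all loci tested), and from -0.42 to 0.33 in TNF against control, with 1 (11.2% of all loci tested). Of the 15 alternatives, 1 called 1 of them in TNFSG against SG. BUD31, a splicing factor, averaged 149.2 ± 8.71 FPKM in TNFSG, 143.0 ± 1.5 in TNF, 134.9 ± 8.32 in SG and 135.9 ± 5.53 in control (SD, n = 3 each). CPSF4, a subunit of the polyadenylation complex, averaged 63.3 ± 6.36 FPKM in TNFSG, 63.2 ± 8.47 in TNF, 68 ± 0.325 in SG and 59.7 ± 8.21 in control.

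Among receptors and factors known to act on CYP3A genes, 27 loci were tested. None of these was named for the pregnane X receptor. NR1I3, the constitutive androstane receptor, averaged 44.8 FPKM in TNFSG, 33.1 in TNF, 52.5 in SG and 39.3 in control. It differed by -0.21 (log2, limma adjusted p = 0.807) in TNFSG against SG and by -0.26 (limma adjusted p = 0.741) in TNF against control. CEBPD, a C/EBP factor of the acute phase, rose in TNF cells, with 19.4 ± 6.79 FPKM in TNF, against 6.01 ± 2.28 in control (SD, n = 3 each). The difference was 1.54 (log2, limma adjusted p = 0.0326). The call was lost in 5 of 15 alternatives, without TNF replicate 1, TNF replicate 2, control replicate 2 or control replicate 3 and in a fit of the compared groups alone, with adjusted p values up to 0.213 under the alternatives. CEBPD averaged 16.4 ± 3.52 FPKM in TNFSG and 5.7 ± 1.36 in SG, a difference of 1.37 with a limma adjusted p of 0.052 (0.00148 to 0.186 under the alternatives). FOXA3 differed by 0.98 (log2, limma adjusted p = 0.0755) in TNFSG against SG and by 0.87 (limma adjusted p = 0.123) in TNF against control. In the same order USF1 differed by 0.52 (limma adjusted p = 0.0622) and 0.53 (0.0598), and NCOA1 by -0.41 (0.301) and -0.45 (0.248). At each of these genes the compared groups did not overlap. Of the 15 alternatives, 2 and 1 called FOXA3, and 4 and 3 called USF1. Over the list the median difference was 0.07 in TNFSG against SG and 0.18 in TNF against control, and 0 of the 27 passed in TNFSG against SG or in SG against control. An unadjusted limma p under 0.05 was found for 11 of 27 in TNFSG against SG, 7 in TNF against control and 3 in SG against control, beside 11.4%, 11.2% and 9.86% of all loci tested.

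Of 11 electron transfer partners of P450 enzymes tested, PGRMC2, a haem-binding membrane protein, fell in TNF cells to 25.8 ± 1.19 FPKM, against 38.9 ± 0.26 in control (SD, n = 3 each). The difference was -0.57 (log2, limma adjusted p = 0.0187), which did not survive leaving out any 1 of the 6 libraries, with adjusted p values up to 0.0753. PGRMC2 averaged 24.3 ± 3.56 FPKM in TNFSG and 32.5 ± 1.58 in SG, with a limma adjusted p of 0.0794. POR, the P450 reductase, differed by -0.10 (log2, limma adjusted p = 0.61) in TNFSG against SG and by -0.01 (limma adjusted p = 0.993) in TNF against control.

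Of P450 families 1 to 4 outside the cluster 13 loci were tested, and of families 5 and up 9, and 0 of either passed limma's adjusted threshold in any comparison. CYP2F1 averaged 20.8 ± 3.51 FPKM in TNFSG, 11.1 ± 2.82 in TNF, 15.5 ± 3.38 in SG and 13.9 ± 4.44 in control (SD, n = 3 each). CYP51A1, the sterol demethylase of cholesterol synthesis, averaged 59.7 ± 5.89 FPKM in TNFSG, 59.2 ± 5.51 in TNF, 68.4 ± 7.67 in SG and 69.6 ± 8.74 in control. Several others had wide spreads within a group, such as CYP4B1 with 99.2 to 394.5 FPKM in control, and each symbol was read from 1 locus. In families 1 to 4, 2 of 13 loci had an unadjusted p under 0.05 in TNFSG against SG and 0 in TNF against control, beside 11.4% and 11.2% of all loci tested.

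**Figure D5:**
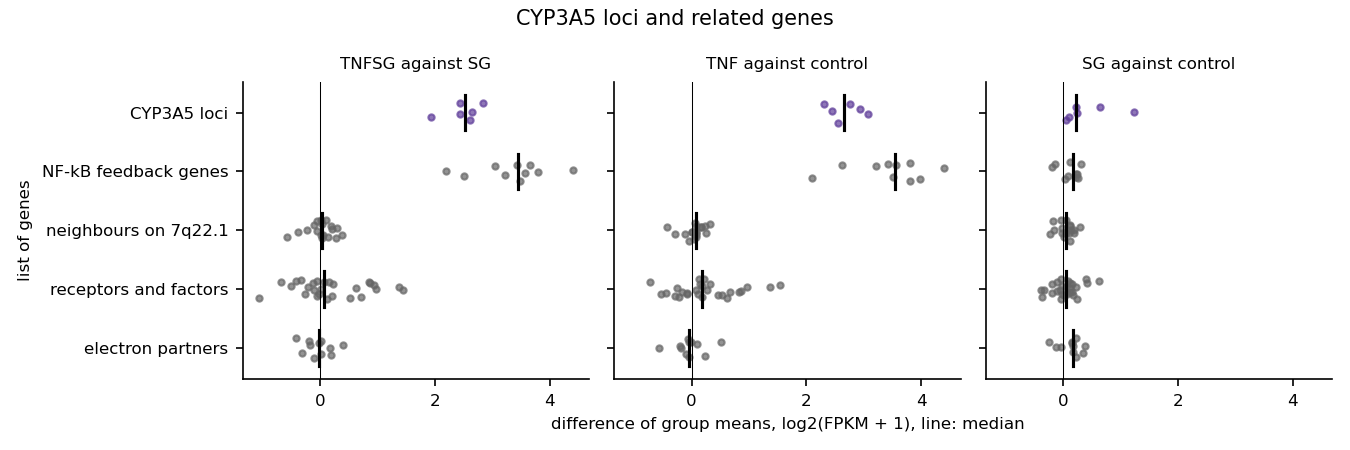
Differences of group means on the log2(FPKM + 1) scale for the 6 CYP3A5 loci and for 4 lists of genes, 1 point per locus and a line at the median, in TNFSG against SG, TNF against control and SG against control. CYP3A5 medians are 2.52, 2.65 and 0.23, while the 7q22.1 neighbours have medians of 0.04, 0.07 and 0.06.

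The loci most like CYP3A5 XLOC_032059 over the 12 libraries were sought among 17013 named loci with a mean of at least 2 FPKM, by Pearson's r of log2(FPKM + 1). The 8 closest had r of 0.985 to 0.989, and since the libraries fall into those with and those without TNF, r describes mainly that division. TNFRSF9, a costimulatory receptor of the TNF receptor family, averaged 29.2 ± 1.62 FPKM in TNFSG and 23.8 ± 2.27 in TNF, against 1.79 ± 0.609 in SG and 1.17 ± 0.447 in control (SD, n = 3 each). TUBAL3, an alpha tubulin-like protein, averaged 18.5 ± 2.94 FPKM in TNFSG and 15.2 ± 1.72 in TNF, against 3.52 ± 0.672 in SG and 3.35 ± 0.967 in control. DRAM1, a lysosomal membrane protein, averaged 29.2 ± 2.08 FPKM in TNFSG and 26.5 ± 4.63 in TNF, against 7.15 ± 1.13 in SG and 7.56 ± 2.13 in control. The others were KRBA1, GRAMD4P7, RNF19A (a ubiquitin ligase), TRAF3 (an adaptor of TNF receptor signalling) and NFKBIB (an inhibitor of NF-kB). The other CYP3A5 loci had r of 0.910 to 0.988 with XLOC_032059, CYP3A7 XLOC_032060 had 0.887, CYP3A4 had 0.691, and the smaller CYP3A7 loci had -0.179 to 0.373.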

How the data were processed

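RNA from K562 cells in 4 groups of 3 libraries was extracted with Trizol and sequenced on an Illumina HiSeq in single reads, 50 bases long, per the labels' protocols. Per the submitters' processing notes, Bowtie2 2.2.9, TopHat2 2.0.14 and Cufflinks were used with hg38. No source used here gives the version of Cufflinks or the annotation. The authors deposited FPKM values in 1 table, with 1 column per library, and these were used as they stand. Strand was not stated, so overlapping and antisense transcripts cannot be told apart.

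Loci that reached 1 FPKM in 3 or more libraries (32866) were transformed as log2(FPKM + 1) and fitted with 1 mean per group over the 12 libraries with limma 3.58.1 (trended eBayes) in R 4.3.3, two-sided, with Benjamini-Hochberg adjustment and a threshold of 0.05. The fit was also run on simulated normal values with known changes, none of them placed in loci of low level. That run does not cover the smaller CYP3A7 loci or CYP3A4. Reads were recovered where a locus's low values stepped in whole multiples. Alternatives were the replicate block, pseudocounts 0.1 and 0.5, no filter, a 5 FPKM filter, median-ratio scaling, quantile normalization, no trend, only the groups compared, and each library left out. Positions and transcripts came from GENCODE 29 and promoters from RefSeq (GRCh38.p14). Python 3.11.15, pandas 2.3.3, Biopython 1.88 and matplotlib 3.10.9 were used.

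The loci and lists were chosen with earlier results of these data known. Named genes are all CYP3A loci, list members past the threshold or else up to 4 of highest mean, and the 8 loci most like CYP3A5. In lists without a call, only some of those 4 are described. A listed symbol was read from its locus of highest mean among those above 0 in all 12 libraries, or of highest mean where there was none. This choice of locus was made after the values were seen. POR, NR1I3, FOXA3, USF1, NCOA1, UGT2B7, ABCG2 and SLC22A5 were named outside this rule, after their values were seen.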

Additional observations from a re-analysis of the deposited data

How the results depend on the processing

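Of the 10 CYP3A loci tested, 7 passed limma's adjusted threshold in TNF against control, and 3 did in a fit of the compared groups alone, which leaves fewer libraries to estimate the spread. In TNFSG against SG 7 passed, and 5 to 6 with 1 library left out. In SG against control, TNFSG against TNF and the interaction 0 passed under every alternative run. With the replicate number as a block the counts of called loci were 7, 7, 0, 0 and 0, so the block changed no call of a CYP3A locus. Same-numbered libraries correlated at 0.00651 to 0.138 in their deviations, and differently numbered ones at -0.0932 to 0.0425. The library titles also give replicates of the same number the same letter. Whether same-numbered libraries were handled together is not known, so the main fit did not pair them.

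Of 776 values of single loci under the alternatives, 31 had the other sign, and 0 of the 210 values of called differences did. The called differences all lay in the comparisons of TNF treatment, on which the loci were chosen, so nothing is read from their kept signs. The cause of the other signs was not tested. For TNFSG against TNF, XLOC_033034 (0.00 in the report) was -0.07 under median-ratio scaling and -0.03 under quantile normalization. For SG against control, XLOC_033035 was -0.001 under quantile normalization, and XLOC_033038 was -0.0024 under median-ratio scaling and -0.08 under quantile normalization. With 1 library left out in turn, TNFSG against TNF ran from -0.06 to 0.24 at XLOC_032059, -0.16 to 0.24 at XLOC_033034, -0.05 to 0.45 at XLOC_033035, -0.02 to 0.49 at XLOC_033037 and -0.0016 to 0.34 at XLOC_033038. SG against control then ran from -0.16 to 0.43 at XLOC_033035, -0.09 to 0.23 at XLOC_033038 and -1.06 to 0.51 at XLOC_033039. The interaction ran from -0.31 to 0.04 at XLOC_032059, -0.17 to 0.43 at XLOC_033035 and -0.07 to 0.30 at XLOC_033038. At XLOC_033039, a locus of 4 to 13 reads a group, TNFSG against SG ran from -0.39 to 0.42 and TNF against control from -1.42 to 0.14. A pseudocount of 0.1 moved the median of all loci to 0.103 in SG against control and 0.106 in TNFSG against TNF. Of the related genes, 0 to 5 of 27 receptors and factors and 0 to 2 of 11 electron transfer partners were called in TNF against control.

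Total depth is not in the file. The smaller CYP3A7 loci and CYP3A4 rest on 0 to 30 reads a library, so small differences were not detectable there.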

Other observations

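Conjugating enzymes and drug transporters, which act after or beside P450 enzymes, were also read. Of 26 conjugating enzyme loci and 15 transporter loci tested, 0 passed limma's adjusted threshold in any of the 5 comparisons. In TNF against control 4 of the 26 and 4 of the 15 had an unadjusted p under 0.05, beside 11.2% of all loci tested, and single alternatives called up to 2 of a list. GSTP1, a glutathione transferase, averaged 706.7 ± 88.6 FPKM in TNFSG, 766.2 ± 36 in TNF, 694.0 ± 78.8 in SG and 708.9 ± 50.5 in control (SD, n = 3 each). MGST1, a membrane-bound glutathione transferase, averaged 122.1 ± 3.76 FPKM in TNFSG, 126.5 ± 4.34 in TNF, 141.5 ± 6.37 in SG and 148.9 ± 11 in control. ABCC4, an export pump, averaged 14.3 ± 0.649 FPKM in TNFSG, 14.4 ± 2.48 in TNF, 16.3 ± 1.49 in SG and 16.6 ± 2.63 in control. ABCB1, which exports many CYP3A substrates, ran from 7.37 to 254.1 FPKM in TNFSG, 0.205 to 4.67 in TNF, 6.13 to 2096.1 in SG and 5.95 to 796.8 in control. TNF thus lay below control without overlap at ABCB1, with a difference of -3.60 ± 2.46 (log2 ± SE) and a limma adjusted p of 0.689. Some uncalled loci were higher with TNF. UGT2B7 had 81 to 271.8 FPKM in TNF, against 0 in every control library. It had 99.3 to 618.1 in TNFSG, against 0 to 206.8 in SG. ABCG2 had 9.67 to 15.2 FPKM in TNF, against 3.53 to 7.61 in control. It had 11.6 to 17 in TNFSG, against 4.64 to 8.67 in SG. SLC22A5 went the other way, with 5.07 to 5.89 FPKM in TNF, against 6.59 to 7.13 in control. It had 3.75 to 5.13 in TNFSG, against 6.23 to 8.56 in SG.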
